A study of Homo sapiens with 57 samples.

Results

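HMOX1, TXN, TXNIP and SOD2 are 4 of the 412 genes on a targeted RNA panel, and they were followed here through every well as one group of redox genes. The grouping is a label and not a finding: with Roucongrong, HMOX1 was higher and SOD2 lower. The rows of the 4 genes were taken by Entrez gene ID, and all 4 rows were present in all 57 wells. They were picked because of how they responded to the herbs in these same wells, so their values in the herb wells are given as a description. Calls by the study's limits on p and fold, but with edgeR in place of its DESeq, are stated for them as part of that description. They are given with no p-value and are no independent evidence. HK-2 is an established line of immortalised human proximal tubule epithelial cells. About 3000 HK-2 cells per well received 100 μg/mL of a crude herbal extract for 24 h, or 0.5% DMSO for the same time. The DMSO content of the herb wells is not given in the sources used here. The extracts were Roucongrong (Cistanche deserticola), Yinyanghuo (Epimedium brevicornu) and Gusuibu (Drynaria fortunei), each a lyophilised ethanol extract given alone. Every herb was applied to 3 wells and was compared with the 16 DMSO wells of its own labelled set, which gave 48 DMSO wells in all. Because each set held a single herb, herb and set cannot be told apart when herbs are compared with each other. The wells came from 1 cell line and nothing in the labels says that they were separate cultures, so p-values measure the spread between wells, which may be technical.

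RASL-seq was used to read the panel: probes that meet side by side on their target RNA are ligated, and the products are amplified and sequenced. Probe pairs differ in efficiency, so levels were compared between wells for one gene and not between genes. The wells held 13581 to 75969 reads (median 35239), and the Yinyanghuo wells included the shallowest, with 13581 reads in replicate 2. A count of 3, taken as the floor, was worth 39.5 to 221 CPM (reads after scaling every well to 1 common total), and this covers counting error only because the reads carry no molecular identifiers. Of the proximal tubule markers listed for a check of the cell type, HNF4A was on the panel and had 0 to 3 counts per well with a median of 0, so the label could not be checked further. Of the markers listed for other cell types, CDH5 (0 to 6 counts), ITGAM (0 to 3) and COL1A2 (0 to 1) had a median of 0, and KDR had a median of 8 counts (0 to 40). In a bulk well, fewer cells of a type and less RNA per cell cannot be told apart.

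Cells keep reactive oxygen species in check with enzymes that remove them and with proteins that repair oxidised thiols. HMOX1 encodes haem oxygenase-1, which breaks down haem to biliverdin, iron and carbon monoxide and is a classical target of the transcription factor NRF2. TXN encodes thioredoxin, the small protein that reduces disulfides in other proteins, and it is also an NRF2 target. TXNIP encodes the thioredoxin-interacting protein, which binds reduced thioredoxin and limits glucose uptake, and its transcription is known to respond to glucose through the carbohydrate response elements of its promoter. SOD2 encodes the manganese superoxide dismutase of the mitochondrial matrix, which turns superoxide into hydrogen peroxide and is a well-known target of NF-κB. Proximal tubule cells are rich in mitochondria, a main source of such oxidants.

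The stretches of 250 bases just upstream of annotated transcription starts are shown for TXN, TXNIP and SOD2, from RefSeq on GRCh38.p14. HMOX1 is not among them and was not searched, because no stretch for it was available in the sources used here. Those shown hold letters of elements by which the 3 genes are known to be read. All 3 are on the minus strand and are written 5′ to 3′ in the direction of transcription, with matches to the searched motifs in capitals. The TXN stretch lies at chr9:110256508-110256757, that of the first listed TXNIP start (of 2) at chr1:145996580-145996829, and that of the third listed SOD2 start (of 4) at chr6:159693242-159693491.
TXN: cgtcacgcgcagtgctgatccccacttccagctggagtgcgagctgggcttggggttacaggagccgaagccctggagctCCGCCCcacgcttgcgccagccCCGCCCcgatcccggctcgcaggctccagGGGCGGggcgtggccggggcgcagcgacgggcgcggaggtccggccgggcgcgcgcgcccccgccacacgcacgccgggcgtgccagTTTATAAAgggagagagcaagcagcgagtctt
TXNIP: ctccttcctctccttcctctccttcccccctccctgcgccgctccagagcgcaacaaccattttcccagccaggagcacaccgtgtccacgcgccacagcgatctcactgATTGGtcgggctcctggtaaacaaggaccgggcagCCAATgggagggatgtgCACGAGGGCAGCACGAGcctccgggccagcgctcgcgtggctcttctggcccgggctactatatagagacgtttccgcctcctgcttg
SOD2: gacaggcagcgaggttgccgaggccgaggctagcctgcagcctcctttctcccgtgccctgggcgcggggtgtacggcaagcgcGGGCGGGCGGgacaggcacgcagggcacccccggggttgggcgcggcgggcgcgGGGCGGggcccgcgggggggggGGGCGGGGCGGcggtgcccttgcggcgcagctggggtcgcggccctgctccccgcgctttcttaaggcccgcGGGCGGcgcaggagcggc
The capitals in TXN mark 3 GC boxes (GGGCGG on either strand) and a run with 2 overlapping matches of TATAAA, 1 on each strand. In TXNIP they mark 2 CCAAT boxes and 1 match of a relaxed carbohydrate response element, a pair of E-box-like motifs on a fixed spacing. The SOD2 capitals mark 6 GC boxes, some of which overlap. Over the 35116 stretches of the same length in the RefSeq table, 42.6% held a GC box, 10.7% TATAAA, 32% CCAAT and 0.0456% the relaxed carbohydrate response element, each on either strand. TXNIP is already known for such elements and the relaxed letters fit its stretch, so the low share is no independent support for that match. The core of the antioxidant response element, TGACNNNGC, which 10.9% of all stretches held, had no match in these 3, and neither did the E-box CACGTG (6.34% of all stretches). A match or its absence describes the letters of these windows and was not tied to the expression values.

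HMOX1 was called with Roucongrong and Yinyanghuo, SOD2 with Roucongrong alone and TXNIP with Gusuibu alone, and whether the herbs differ in these genes was not tested. Roucongrong wells stood far above their DMSO wells for HMOX1 and below them for SOD2. In Yinyanghuo wells HMOX1 and TXN were both above every DMSO well of the set. TXN stayed under the fold limit of a call here, while the paper lists it as changed by Yinyanghuo. In Gusuibu wells, TXNIP was the gene with the largest difference of the 4, and HMOX1 and SOD2 lay among their DMSO wells. A gene was called when an edgeR quasi-likelihood test gave an unadjusted p under 0.05 with a fold change above 1.5 or below 0.67. By this rule 2 of the 4 genes were called with Roucongrong, where 10.2% of the 402 genes tested were called, 1 of 4 with Yinyanghuo (15% of 400) and 1 of 4 with Gusuibu (9.45% of 402). The 4 genes were chosen from these contrasts, so nothing is read from the comparison of those shares.

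**Figure D1:**
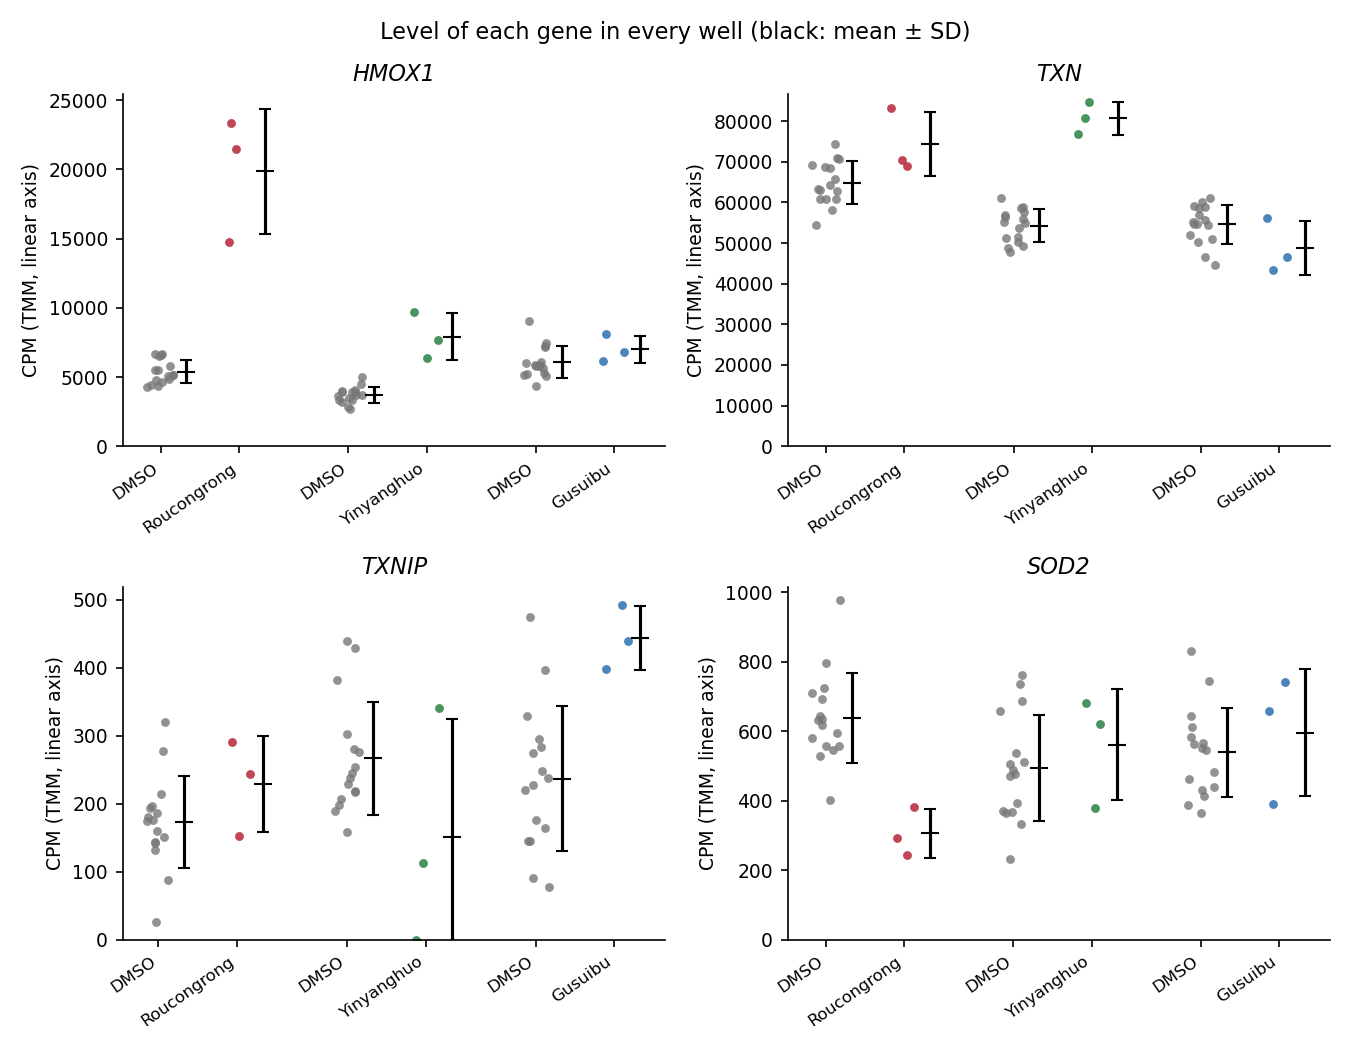
CPM after TMM scaling of HMOX1, TXN, TXNIP and SOD2 in each of the 57 wells (linear axis from 0), with the DMSO wells in grey, the herb wells in colour, and black marks for the mean ± SD. The 3 Roucongrong wells reach 14722 to 23365 CPM of HMOX1, against at most 6670 CPM in the DMSO wells of that set.

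HMOX1 had 455, 842 and 768 reads in Roucongrong replicates 1, 2 and 3, which came to 14722, 21478 and 23365 CPM. Its 16 DMSO wells had 4307 CPM at the lowest, 5179 at the median and 6670 at the highest. All 3 Roucongrong wells were above every DMSO well, with replicate 1 the lowest of the 3. The mean was 19855 ± 4544 CPM (SD, n = 3) against 5383 ± 839 CPM (SD, n = 16), and the fitted log2 fold change was 1.87 with a standard error (SE) of 0.13. Leaving out each herb well in turn gave 1.78 to 2.03.

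With Yinyanghuo, HMOX1 had 161, 143 and 226 reads in replicates 1, 2 and 3, or 7644, 9732 and 6381 CPM. The DMSO wells of that set lay between 2707 and 5011 CPM with a median of 3705. The groups did not overlap, and the highest value came from the shallowest well. The log2 fold change was 1.07 (SE 0.15), from means of 7919 ± 1693 CPM (SD, n = 3) and 3705 ± 586 CPM (SD, n = 16). Without overlap between herb and DMSO wells stood 2.24% of the genes tested with Roucongrong, 4% with Yinyanghuo and 1.24% with Gusuibu.

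Gusuibu wells had 142, 252 and 330 HMOX1 reads, or 8084, 6139 and 6774 CPM. Their DMSO wells ranged from 4340 to 9075 CPM with a median of 5823. All 3 herb wells were above the DMSO median, 4 DMSO wells were above the lowest herb well, and no herb well was above all DMSO wells. Its log2 fold change of 0.17 (SE 0.15) was about the size of its error, and the gene was not called.

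The DMSO level of HMOX1 itself differed between sets. Differences between DMSO sets are another contrast than the one that chose the genes, but the same DMSO wells were the reference in that choice, so the tests are not fully independent of it. Across the 48 DMSO wells the adjusted p for any difference between the 3 sets was 1.53e-09 (edgeR quasi-likelihood test, Benjamini-Hochberg over 412 genes). At this threshold of 0.05, 26.2% of all genes differed, and 2 of the 4 genes did. HMOX1 was lower in the Yinyanghuo set than in the Roucongrong set by a log2 difference of -0.54 (SE 0.08, edgeR adjusted p = 9.32e-07), and lower than in the Gusuibu set by -0.71 (SE 0.08, edgeR adjusted p = 5.94e-09). The Gusuibu and Roucongrong sets differed by 0.17 (SE 0.08), which did not pass (edgeR adjusted p = 0.132). Over all genes, 21.4% passed for Yinyanghuo against Roucongrong, 22.6% for Gusuibu against Roucongrong and 5.83% for Yinyanghuo against Gusuibu. The choice of DMSO wells therefore carries into the Yinyanghuo value. When the controls were instead taken from the other 2 sets, its HMOX1 log2 fold change was 0.44 and the call was lost, while that of Gusuibu became 0.60 and was called, and Roucongrong kept its call. The order of the 6 group means was Roucongrong, Yinyanghuo, Gusuibu, and then the DMSO wells of Gusuibu, Roucongrong and Yinyanghuo. The Yinyanghuo and Gusuibu wells, next to each other in that order, overlapped.

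TXN was the most abundantly counted of the 4, and its wells were tightly grouped. Yinyanghuo wells had 1783, 1127 and 2857 reads, or 84659, 76703 and 80662 CPM. The DMSO wells of the set lay between 47762 and 61194 CPM with a median of 55049, so the herb wells were all above them. The ratio of mean CPM was 1.49. The fitted log2 fold change was 0.55 (SE 0.07), a fold under the limit of 1.5, so TXN was not called. With RLE or DESeq2 size factors the log2 fold change was 0.66, and with genes of low count removed 0.63 to 0.64, values at which the gene is called. The paper, which used DESeq, lists TXN among the genes changed by Yinyanghuo.

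Roucongrong wells had 70473, 69026 and 83330 CPM of TXN, from 2178, 2706 and 2739 reads. In their DMSO wells TXN ranged from 54339 to 74261 CPM with a median of 63804. All 3 were above the DMSO median, but replicate 3 was the only one above every DMSO well. This gave a log2 fold change of 0.18 (SE 0.08). Gusuibu wells had 56074, 43366 and 46660 CPM from 985, 1780 and 2273 reads, against 44519 to 61085 CPM (median 54907) in DMSO. Replicate 2 lay below every DMSO well and replicate 1 above the median, and the log2 fold change was -0.19 (SE 0.08).

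The DMSO wells differed for TXN too (edgeR adjusted p = 1.52e-06 for any difference between sets). The Roucongrong set was the higher, by 0.26 on the log2 scale over the Yinyanghuo set (-0.26 for Yinyanghuo minus Roucongrong, SE 0.04, edgeR adjusted p = 8.69e-06). Gusuibu minus Roucongrong was -0.25 (SE 0.04, edgeR adjusted p = 1.28e-05). Between the Yinyanghuo and Gusuibu sets the difference was -0.01 (SE 0.04, edgeR adjusted p = 0.924). The 3 wells given Yinyanghuo also stood above the highest DMSO well of all 3 sets, at 74261 CPM in the Roucongrong set.

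**Figure D2:**
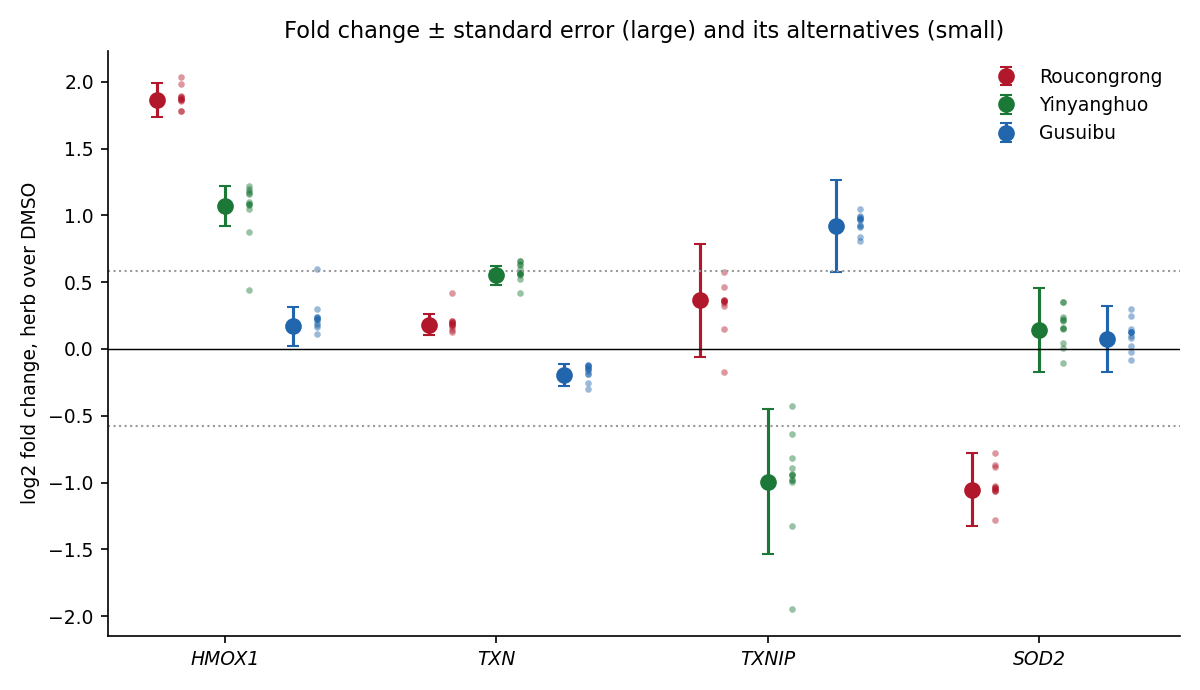
Log2 fold change of each herb over the DMSO wells of its set (large points, with bars for ± SE) and the values under each alternative processing (small points), with dotted lines at fold changes of 1.5 and 0.67. HMOX1 with Roucongrong lies at 1.87 and SOD2 with Roucongrong at -1.05, while TXNIP with Yinyanghuo, at -0.99, has the widest bar and spread.

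TXNIP was counted in few reads. Gusuibu wells had 7, 18 and 24 reads, or 398, 439 and 493 CPM, against 77.8 to 474 CPM (median 233) in the DMSO wells. All 3 wells were above the DMSO median, replicate 3 was above every DMSO well, and 1 DMSO well was above the lowest herb well. Its log2 fold change was 0.92 (SE 0.35) and was called, but without replicate 3 it was 0.81 and not called.

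Yinyanghuo wells had 0, 5 and 4 TXNIP reads, or 0, 340 and 113 CPM. Their DMSO wells had 5 to 13 reads, or 159 to 439 CPM with a median of 241. Replicates 1 and 3 were below every DMSO well and replicate 2, the shallowest, was above the median. Finding 0 of 21916 reads in replicate 1 allows a level of up to 137 CPM by the floor. A log2 fold change of -0.99 had an SE of 0.55 and was not called. Without replicate 2 it was -1.95, which is called, so this single well decides the outcome.

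With Roucongrong, TXNIP had 9, 6 and 8 reads, or 291, 153 and 243 CPM, against 25.8 to 320 CPM (median 175) in DMSO. These wells lay among the DMSO wells, and the log2 fold change was 0.36 (SE 0.42). Over the DMSO wells, TXNIP did not pass the test for any difference between sets (edgeR adjusted p = 0.0753). The single pair of Yinyanghuo minus Roucongrong passed, at 0.59 (SE 0.22, edgeR adjusted p = 0.0397).

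SOD2 was the one gene of the 4 called lower. Roucongrong wells had 9, 15 and 8 reads, or 291, 383 and 243 CPM. The 16 DMSO wells had 17 to 61 reads, or 402 to 977 CPM with a median of 625. All 3 herb wells were below every DMSO well, with replicate 2 the closest to them. The log2 fold change was -1.05 (SE 0.28), from means of 306 ± 70.7 CPM (SD, n = 3) and 637 ± 129 CPM (SD, n = 16), and leaving out single herb wells gave -1.28 to -0.88.

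In Yinyanghuo wells SOD2 had 8, 10 and 22 reads, or 380, 681 and 621 CPM, against 234 to 760 CPM (median 482) in DMSO. Gusuibu wells had 13, 16 and 32 reads, or 740, 390 and 657 CPM, against 364 to 831 CPM (median 549). Both herbs overlapped their DMSO wells, with 2 of 3 wells above the median in each. Their log2 fold changes of 0.14 (SE 0.32) and 0.08 (SE 0.25) were smaller than their errors. The DMSO sets did not pass the test for SOD2 (edgeR adjusted p = 0.0957).

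**Figure D3:**
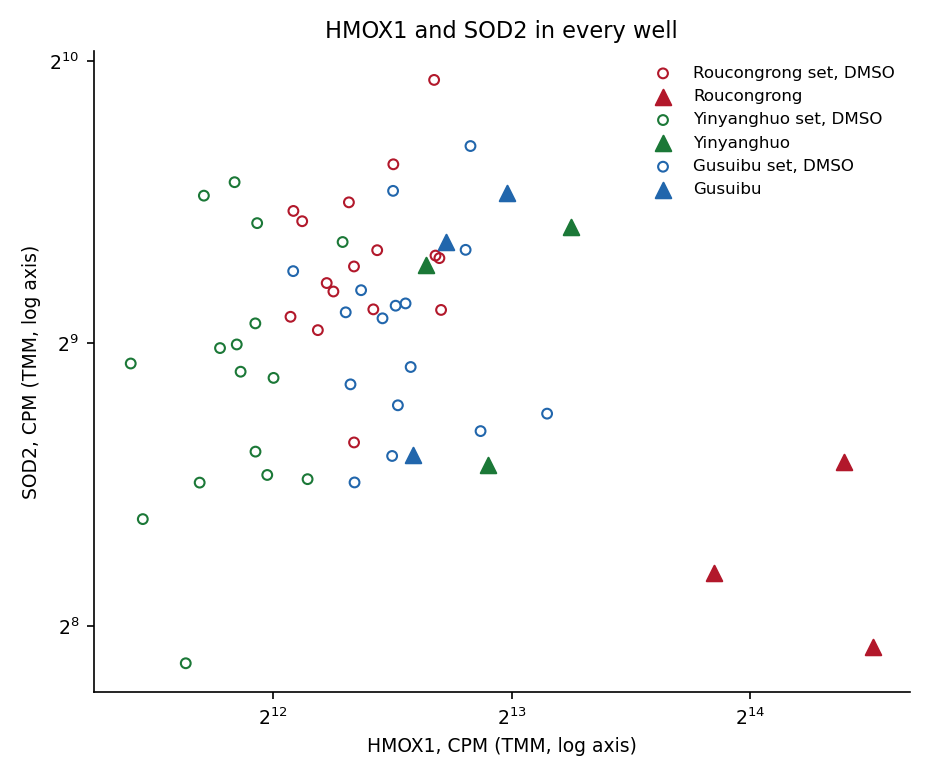
HMOX1 against SOD2 in each well (both axes in CPM after TMM scaling, log scale), with open circles for DMSO wells and triangles for herb wells, coloured by set. The 3 Roucongrong wells sit alone at the lower right, with 14722 to 23365 CPM of HMOX1 and 243 to 383 CPM of SOD2.

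The ratio of 2 genes within a well does not depend on how wells were scaled. The log2 ratio of SOD2 to HMOX1 reads averaged -5.95 ± 0.48 (SD, n = 3) in Roucongrong wells and -3.06 ± 0.31 (SD, n = 16) in their DMSO wells. The wells did not overlap. This was fixed in advance, because HMOX1 lay above and SOD2 below every DMSO well, and it adds no evidence. The same ratio was -3.78 ± 0.46 against -2.91 ± 0.43 with Yinyanghuo and -3.56 ± 0.33 against -3.47 ± 0.42 with Gusuibu. The log2 ratio of HMOX1 to TXN was -1.93 ± 0.30 with Roucongrong against -3.60 ± 0.25 in DMSO. With Yinyanghuo, where both genes were higher, it was -3.37 ± 0.35 against -3.88 ± 0.28 and the wells overlapped. With Gusuibu the 3 wells ran from -2.82 to -2.78, a mean of -2.80 ± 0.02, against -3.18 ± 0.26 in DMSO, and they too lay inside the DMSO range of -3.75 to -2.61.

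How far single wells can be read depends on the count. In the DMSO wells the chi-square per degree of freedom, which is near 1 when wells differ by counting noise alone, was 0.848 to 1.75 for TXNIP and 1.14 to 1.46 for SOD2. It was 2.95 to 8.49 for HMOX1 and 4.03 to 7.70 for TXN. Counting alone gives a coefficient of variation of 34.1% to 36.2% for TXNIP and 19.1% to 25.8% for SOD2. For HMOX1 this was 6.60% to 9.56%, and for TXN 1.90% to 2.49%.

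Whether the 4 genes varied together without a herb was tested from well to well. Over the 48 DMSO wells, with the set means removed, Pearson's r of the 6 pairs ran from -0.22 for TXN and TXNIP to 0.17 for HMOX1 and SOD2. None passed a permutation test with 100000 resamples and adjustment over the 6 pairs (lowest adjusted p = 0.647). By the same test, Spearman's rho passed for none either (lowest adjusted p = 0.706). TXNIP and SOD2 varied little beyond counting noise here, with a chi-square per degree of freedom of 0.848 to 1.75 and 1.14 to 1.46. A shared variation in pairs with either gene could hardly be seen, so no conclusion is drawn for them. HMOX1 and TXN, counted in more reads, gave r = 0.01. For TXN and TXNIP the raw permutation p was 0.15 and rho was -0.18 (permutation p = 0.235), and r was -0.10 without the 2 wells farthest from the median of TXN. For HMOX1 and SOD2 the raw permutation p was 0.261 and rho was 0.10 (permutation p = 0.513), and r was 0.18 without the 2 farthest wells. Within sets, TXN and TXNIP gave -0.05, -0.06 and -0.45 in the Roucongrong, Yinyanghuo and Gusuibu sets. HMOX1 and SOD2 gave 0.26, 0.28 and -0.02. The correlation with the log2 total of the well was 0.11 for HMOX1, 0.33 for TXN, 0.01 for TXNIP and 0.29 for SOD2.

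The genes whose DMSO levels followed each of the 4 most closely are given as a description, over 48 wells and 142 or 143 genes averaging at least 20 reads. They were picked as the highest r among that many genes, and how high r would run among unrelated genes was not tested. TXN had the closest, namely YWHAB (a 14-3-3 adaptor, r = 0.75), FUCA2 (a fucosidase, 0.67) and PPP2R5C (a regulatory subunit of protein phosphatase 2A, 0.62). YWHAB and PPP2R5C shared with TXN a correlation with the well total, of 0.38 and 0.37. HMOX1 was nearest to MED1 (a Mediator subunit, 0.38), THEM4 (a thioesterase, 0.33) and IL18 (a cytokine, 0.31). TXNIP was nearest to CCNG1 (cyclin G1, 0.34), PRKACA (a catalytic subunit of protein kinase A, 0.26) and EP300 (an acetyltransferase, 0.25). SOD2 was nearest to MAPK12 (a p38 kinase, 0.38), ITGAV (an integrin chain, 0.35) and SGK1 (a serum- and glucocorticoid-induced kinase, 0.35), whose own correlations with the total were 0.40 to 0.50.

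**Figure D4:**
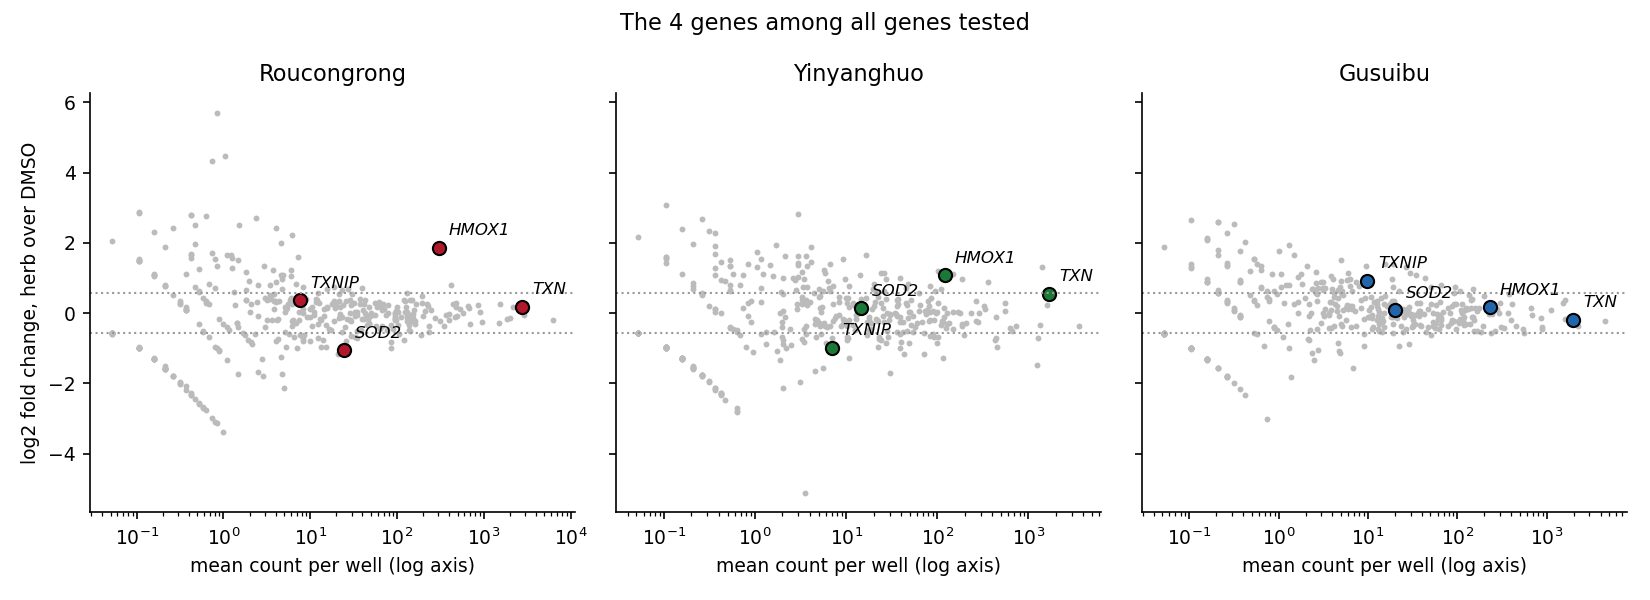
Log2 fold change of each herb over its DMSO wells against the mean count per well (log axis) for all genes tested in grey, with the 4 genes in colour and dotted lines at fold changes of 1.5 and 0.67. HMOX1 with Roucongrong lies at 1.87, and genes with under 1 read per well fan out on both sides of 0.

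Of 77 further genes of redox biology listed by role, 18 were on the panel. Only PON1, a paraoxonase, stood for the enzymes that remove oxidants. The regulators were FOXO1, FOXO3, FOXO4, SIRT1, SIRT3, PPARGC1A, HIF1A and ATM, and the sources of oxidants included CYBA, CYBB, NCF1, RAC1, NOS2 and PTGS2. With Roucongrong 3 of 18 were called higher and 1 lower, with Yinyanghuo 4 of 17 higher and 0 lower, and with Gusuibu 4 of 18 higher and 0 lower. Over all genes tested, 7.21%, 7.75% and 7.71% were called higher and 2.99%, 7.25% and 1.74% lower, in the same order. After adjustment over all genes, 1 of these passed with Roucongrong and 0 with the other two herbs (edgeR), where 2.99% of all genes passed with Roucongrong, 7.5% with Yinyanghuo and 5.22% with Gusuibu. At an unadjusted p under 0.05, whatever the fold, there were 6 of 18 with Roucongrong, 4 of 17 with Yinyanghuo and 5 of 18 with Gusuibu, against 15.4%, 20.5% and 16.9% of all genes. DESeq2 called 3, 3 and 0 of them by the rule with the fold limit, and 26, 54 and 21 of all genes. The median log2 fold change of the list was -0.30, 0.78 and 0.26, against -0.04, -0.13 and 0.04 over all genes. Of the list, 9, 7 and 8 genes averaged at least 5 reads, so these medians rest largely on genes with very few reads.

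**Figure D5:**
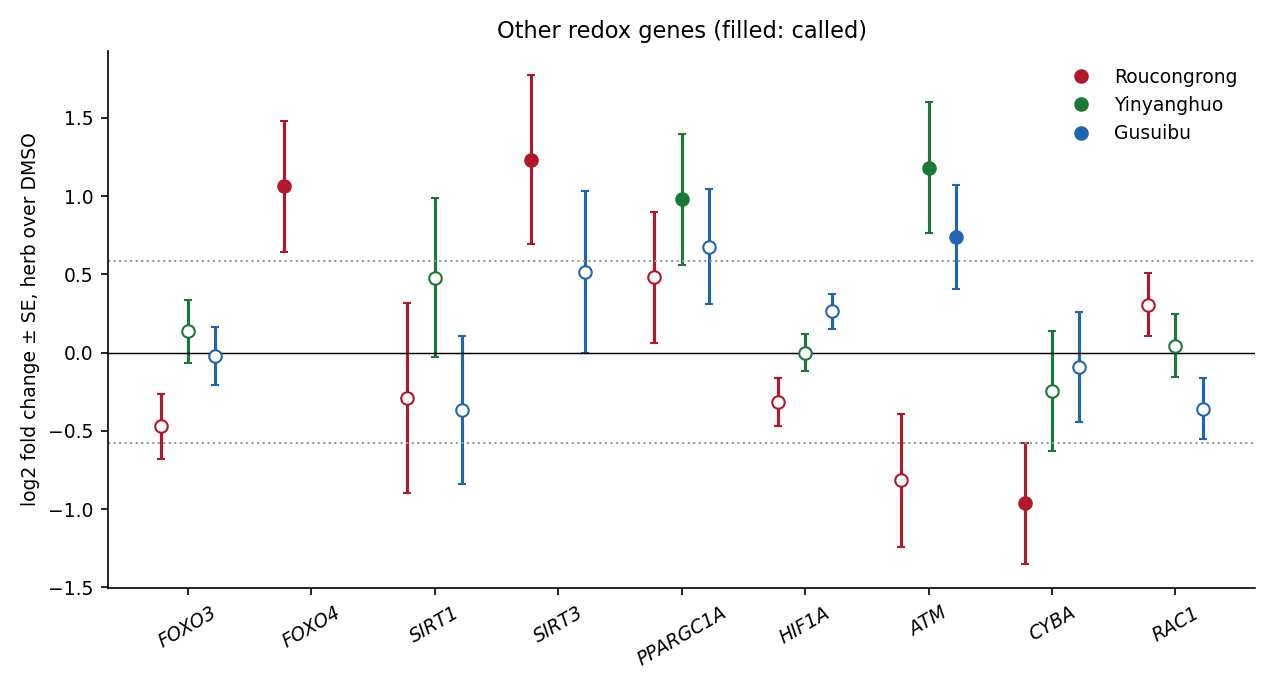
Log2 fold change ± SE over the DMSO wells of the set for the 9 other redox genes that averaged at least 5 reads in some comparison, coloured by herb and filled where called. ATM lies above 0 with Yinyanghuo and Gusuibu and below 0 with Roucongrong, at 1.18, 0.74 and -0.82.

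Among the regulators, ATM, the kinase best known for the DNA damage response and also sensitive to oxidation, had 46, 189 and 276 reads with Yinyanghuo against 29 to 221 in DMSO. Its log2 fold change was 1.18 (SE 0.42, edgeR adjusted p = 0.0904). With Gusuibu ATM had 36, 264 and 145 reads against 37 to 161, and 0.74 (SE 0.33, edgeR adjusted p = 0.241). In CPM, Yinyanghuo replicate 1 (2184) was far below replicates 2 and 3 (12863 and 7792), and Gusuibu replicate 2 (6432) stood above replicates 1 and 3 (2049 and 2977). Without the replicate 2 well of each herb the ATM values were 0.58 and 0.11, and both calls were lost. PPARGC1A, a coactivator of mitochondrial and antioxidant genes, had 67, 337 and 353 reads with Yinyanghuo against 59 to 346, and 0.98 (SE 0.42, edgeR adjusted p = 0.177). Without replicate 2, the shallowest well, it was 0.11 and not called.

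With Roucongrong, FOXO4, a forkhead factor, had 8, 9 and 11 reads against 2 to 11 in DMSO, and a log2 fold change of 1.06 (SE 0.42, edgeR adjusted p = 0.198). SIRT3, the mitochondrial deacetylase that acts on SOD2 protein, had 9, 16 and 6 reads against 0 to 15, and 1.23 (SE 0.54, edgeR adjusted p = 0.271). CYBA, the p22phox subunit of NADPH oxidases, was the gene called lower, with 8, 8 and 4 reads against 5 to 35, and -0.96 (SE 0.39, edgeR adjusted p = 0.214). NCF1, another oxidase subunit, had 0, 0 and 17 reads and passed adjustment (edgeR adjusted p = 0.00314), but all of its reads were in replicate 3. Calls at a mean count under 5 included FOXO4 and CYBB with Yinyanghuo and FOXO1 and PON1 with Gusuibu. The FOXO4 and CYBA calls were lost without replicate 3 (0.93 and -0.71), and that of SIRT3 without replicate 1 or replicate 2 (1.24 and 0.88). For ATM, PPARGC1A, FOXO4, SIRT3 and CYBA the herb wells overlapped the DMSO wells.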

How the data were processed

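RASL-seq libraries from the 57 wells were sequenced on an Illumina instrument. Per the paper's methods, the sequence data were filtered for mismatches at over 3 bases. The authors deposited whole-number read counts per gene and well, not normalized, for 412 genes. Bowtie2 2.2.4 and DESeq2 1.22.1 are listed in the submitters' processing notes, and a genome build is not given in the sources used here. No 2 wells held identical counts.

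The counts were tested with edgeR 4.0.16 in R 4.3.3 (TMM scaling, quasi-likelihood F test, all genes with a read in the comparison). A call needed p under 0.05 before adjustment plus a fold over 1.5 or under 0.67, as in the study's methods, and adjusted p-values are Benjamini-Hochberg over all genes tested. Printed CPM used TMM factors over all 57 wells. Each herb was compared with the DMSO wells of its set, and the 3 DMSO sets with each other. Correlations used log2 CPM with a prior count of 2 and were tested by two-sided permutation. The code was tested on simulated data.

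The 4 genes and the lists were chosen with earlier results of these data known. Named were these 4 genes, other redox genes called in a herb at a mean count of at least 5 or with an adjusted p under 0.05 for a difference between herbs, and for each of the 4 the 3 genes with the highest r over the DMSO wells among genes averaging 20 reads or more. CYBB, FOXO1 and PON1 fall outside this rule and were named after their values were seen. Alternatives were RLE and total-count scaling, scaling without the 4 genes, DESeq2 1.42.0, low-count filters, a prior count of 0.5, a replicate block, all wells in one fit, DMSO wells of the other sets, and leaving out each herb well. Correlations with well number as a block, or with whole numbers permuted, were added after seeing the data.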

Additional observations from a re-analysis of the deposited data

Results flagged for a closer look

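A test of the difference between herb effects, each taken over its own DMSO wells, passed for 3 other redox genes (edgeR quasi-likelihood test, adjusted over all genes), and herb and set cannot be told apart in any of them. These were 1 of 18 for Yinyanghuo minus Roucongrong, 2 of 18 for Roucongrong minus Gusuibu and 0 of 18 for Yinyanghuo minus Gusuibu, where 6.8%, 6.55% and 5.58% of all 412 genes passed (28, 27 and 23 genes). ATM differed by 1.99 on the log2 scale between Yinyanghuo (1.18) and Roucongrong (-0.82). The SE was 0.64 and the edgeR adjusted p was 0.0450, close to the threshold. Without Yinyanghuo replicate 2 the Yinyanghuo effect on ATM was 0.58, and the difference between herbs was not tested without that well. HIF1A, the oxygen-regulated transcription factor subunit, differed by -0.60 for Roucongrong minus Gusuibu (SE 0.19, edgeR adjusted p = 0.0477). The effects were -0.32 and 0.26 and were not called. The DMSO wells themselves differed in HIF1A, by -0.67 for Gusuibu minus Roucongrong (SE 0.07, edgeR adjusted p = 1.46e-11). Mean HIF1A was 13831 CPM with Roucongrong and 13199 CPM with Gusuibu, against 17074 and 10698 CPM in their DMSO wells. How far the controls account for the herb difference was not tested. NCF1 differed by 5.72 for Roucongrong minus Gusuibu (SE 1.83, edgeR adjusted p = 0.0477), with 17 reads in Roucongrong replicate 3 and 0 in every other herb well, so this fitted size rests on 1 well and on the prior count.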

How the results depend on the processing

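Of 143 values of the 4 genes' fold changes under the alternatives, 128 kept direction and call, as did 54 of 60 DMSO set differences. With controls from the other sets the log2 fold changes were 0.44 (HMOX1, Yinyanghuo, call lost), 0.60 (HMOX1, Gusuibu, called), -0.17 (TXNIP, Roucongrong, reversed) and -0.10 (SOD2, Yinyanghuo, reversed), and 0 of the 4 genes were called with Yinyanghuo and 2 with Gusuibu. TXN with Yinyanghuo was called at 0.66 (RLE), 0.66 (DESeq2), 0.63 (mean count of at least 5) and 0.64 (filterByExpr), so that 2 of the 4 genes were called under each. The median fold change of all genes with Yinyanghuo moved from -0.08 to 0.02 (RLE) and 0.04 (DESeq2).

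The labels do not say that well numbers mark a shared batch, and same-numbered wells were not correlated throughout (-0.53 to 0.49 between herb and DMSO wells), so the numbers were not taken to pair wells. Between DMSO sets, however, part of the numbers deviated together. The median r was 0.18 over 48 same-numbered pairs (-0.30 to 0.83, with 28 over 0.1) and -0.02 over 720 pairs of different numbers, 7 of 16 numbers were over 0.1 in all 3 pairs of sets, and the best match was the own number in 23 of 96 trials, a hint from the data and not from the design. With the replicate block, TXN with Yinyanghuo was called at 0.60, SOD2 with Roucongrong (-0.87) and TXNIP with Gusuibu (0.84) were not, and 1, 2 and 0 of the 4 genes were called with Roucongrong, Yinyanghuo and Gusuibu. The block gave 26, 37 and 22 calls over all genes in that order (41, 60 and 38 without it), 1 other redox gene with Gusuibu, and 0.62 for TXNIP between the Yinyanghuo and Roucongrong DMSO sets (edgeR adjusted p = 0.0567).

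Leaving out single herb wells gave -1.95 to -0.43 for TXNIP with Yinyanghuo, 0.81 to 0.998 for TXNIP with Gusuibu and -0.086 to 0.30 for SOD2 with Gusuibu. It gave 1 to 2 of the 4 genes called with Yinyanghuo and 0 to 1 with Gusuibu. Over all genes it gave 24 to 54 calls with Roucongrong (24 without replicate 3), 46 to 72 with Yinyanghuo and 27 to 42 with Gusuibu, and of the other redox genes 2 to 4 with Roucongrong, 1 to 3 with Yinyanghuo and 2 to 4 with Gusuibu.

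Calls over all genes were 26 with Roucongrong and 21 with Gusuibu under DESeq2, 21 and 19 at a mean count of at least 5, 19 and 20 under filterByExpr, and 24 with Gusuibu in a fit of all 57 wells. The filters leave fewer genes to test. Other redox genes called were 2 with Roucongrong under filterByExpr, 2 with Yinyanghuo under both filters and against the other DMSO wells, and with Gusuibu 0 under DESeq2, 1 under both filters and against the other DMSO wells, and 2 in the fit of all wells. Of the 2 redox genes whose effect differed between Roucongrong and Gusuibu, 1 was left at a mean count of at least 5.

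HMOX1 between the Gusuibu and Roucongrong DMSO sets passed at 0.26 (total counts) and 0.23 (mean count of at least 5). TXN between the Yinyanghuo and Gusuibu sets, near 0, changed sign to 0.019 (RLE), 0.0057 (total counts) and 0.035 (mean count of at least 5). Of 48 values of the correlations, 12 changed sign, namely HMOX1 and TXN (-0.16 with total counts, -0.091 with RLE, -0.037 and -0.30 within the Roucongrong and Yinyanghuo sets), HMOX1 and TXNIP (-0.10), HMOX1 and SOD2 (-0.016) and TXN and SOD2 (0.29) within the Gusuibu set, and TXNIP and SOD2 (-0.021 and -0.035) within the Roucongrong and Yinyanghuo sets, and with the replicate block, chosen after seeing the data, HMOX1 and TXN (-0.045), HMOX1 and TXNIP (-0.29) and HMOX1 and SOD2 (-0.22). No pair passed with the block (lowest adjusted permutation p = 0.353) or when whole well numbers were permuted across the sets (0.723), also chosen after seeing the data. Where no construction is named, the cause was not tested. Depth limits TXNIP most, with at most 24 reads in any well.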
